A study of Mus musculus with 12 samples.

Results

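The TGF-beta signalling genes described here are 10 genes chosen by symbol, Tgfb1, Itgb8, Tgfbr1, Tgfbr2, Smad2, Smad3, Smad4, Smad7, Ski and Skil, out of 53801 gene identifiers in the count files. All 10 were found, and all 10 were among the 20580 genes tested. They were measured by RNA-seq of small pools of sorted dendritic cells (DCs) from the gut of mice of mixed background. Of 12 libraries, 3 came from each of 4 groups: wild type (WT) CD103+CD11b- DCs, WT CD103-CD11b+ DCs, and the same subsets from Cbfb-cKO mice, in which a floxed Cbfb gene is removed by Cre under the CD11c promoter (Cbfb F/F: CD11c-Cre). The libraries of a group were sorted from different mice, and the sources used here do not give whether both subsets came from the same mice, nor the age of the sequenced mice. The cells were gated as CD45+CD64-CD11c+MHC-II+ before the split on CD103 and CD11b, and no treatment is noted for any group. The labels call the controls wild type and do not say whether they carried the Cre transgene, and the CD11c promoter also acts in some cells other than DCs. Cbfb encodes the partner protein that Runx transcription factors need for stable binding to DNA. The CD103+CD11b+ subset was not analysed here.

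TGF-beta is made in a latent form, which integrins such as alpha v beta 8 on intestinal DCs can release. The active ligand brings a type II and a type I receptor together, and the type I receptor phosphorylates the receptor SMADs, which enter the nucleus with the common SMAD and act on target genes together with partners such as Runx factors. Inhibitory SMADs and the corepressors SKI and SNON hold the pathway back, and in skin and gut the pathway is known for its part in the development of Langerhans cells and of DC subsets that carry both CD103 and CD11b.

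The libraries held between 2161929 and 5863484 counts on genes, so that 3 counts corresponded to between 0.485 and 1.53 CPM (counts relative to library size, scaled here by TMM). Cbfb itself did not separate the genotypes. It lay between 199 and 228 CPM in WT and between 215 and 290.2 CPM in Cbfb-cKO CD103+CD11b- DCs, and between 161 and 217 CPM in WT and between 169.6 and 273 CPM in Cbfb-cKO CD103-CD11b+ DCs. A total over the whole gene cannot show the loss of part of it, so the genotype labels were not checked by it, and Cbfb-cKO below stands for the libraries labelled so. The subset labels were checked with markers of conventional type 1 DCs (cDC1s: Xcr1, Clec9a, Batf3, Irf8, Cadm1, Tlr3), whose summed level was between 2245 and 3961 CPM in the CD103+CD11b- libraries and between 307 and 728 CPM in the CD103-CD11b+ libraries. Those of conventional type 2 DCs, named below, summed to between 881 and 970 CPM in WT and between 942 and 1436 CPM in Cbfb-cKO CD103-CD11b+ libraries. In CD103+CD11b- libraries the same markers summed to between 368 and 628 CPM in WT and between 77.0 and 126 CPM in Cbfb-cKO mice. Markers common to DCs (Itgax, Flt3, Zbtb46, H2-Ab1, Cd74) summed to between 2035 and 3962 CPM over all 12 libraries. Markers of macrophages summed to between 13.3 and 59.3 CPM in CD103+CD11b- and between 143 and 460.2 CPM in CD103-CD11b+ libraries, and markers of stroma to between 73.2 and 501 CPM and between 73.9 and 1514 CPM.

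RefSeq promoter windows of 300 bases were matched for 6 of the 10 members, Tgfbr1 with 2 windows, and the part before the annotated start is printed for Smad3, Ski and Tgfbr1, the members with a window that differed between the subsets (GRCm38.p6; Smad3 chr9:63757995-63758244, minus; Ski chr4:155222593-155222785, minus; Tgfbr1 chr4:47352972-47353221, plus). Capitals mark AGAC, the core that SMAD proteins bind.
Smad3: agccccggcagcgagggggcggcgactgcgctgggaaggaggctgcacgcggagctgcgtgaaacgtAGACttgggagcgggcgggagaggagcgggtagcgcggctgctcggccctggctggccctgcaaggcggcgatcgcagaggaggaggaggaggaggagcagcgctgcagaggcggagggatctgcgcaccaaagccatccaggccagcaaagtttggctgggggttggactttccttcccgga
Ski: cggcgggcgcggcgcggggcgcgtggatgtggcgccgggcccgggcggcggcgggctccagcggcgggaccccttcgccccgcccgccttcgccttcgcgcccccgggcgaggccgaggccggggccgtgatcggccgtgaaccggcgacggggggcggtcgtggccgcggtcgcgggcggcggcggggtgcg
Tgfbr1: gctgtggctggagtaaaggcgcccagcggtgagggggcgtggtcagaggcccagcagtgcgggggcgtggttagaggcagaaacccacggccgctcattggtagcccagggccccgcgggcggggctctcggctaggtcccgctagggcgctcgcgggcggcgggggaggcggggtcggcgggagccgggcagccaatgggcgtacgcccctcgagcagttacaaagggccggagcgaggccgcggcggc

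All of these are rich in G and C, with 69.2% G and C for Smad3, 86.5% for Ski and 74.8% for Tgfbr1. AGAC or its reverse complement occurred in 5 of the 7 member windows and in 88.0% of 32851 windows of all genes, and was chosen for printing after the sequences were seen. The longer SMAD motif CAGACA (either strand, always holding AGAC) occurred in 2 of 7 member windows, those of Itgb8 and of the downstream start of Tgfbr1, against 6913 of all 32851 windows. The Runx motifs TGTGGT and TGCGGT occurred in 0 of 7 member windows, against 16.8% and 6.45% of all windows, which says only that these letters are not in these windows.

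The member genes lie on 6 chromosomes of the GRCm38 assembly, and no member shares exon bases with another annotated gene. Tgfb1 (ENSMUSG00000002603) lies at chr7:25687002-25705077 on the plus strand, and Itgb8 (ENSMUSG00000025321) at chr12:119158022-119238802 on the minus strand. The receptor genes Tgfbr1 (ENSMUSG00000007613) and Tgfbr2 (ENSMUSG00000032440) lie at chr4:47353222-47414931 on the plus and chr9:116084293-116175360 on the minus strand. Smad2 (ENSMUSG00000024563), Smad4 (ENSMUSG00000024515) and Smad7 (ENSMUSG00000025880) lie on chromosome 18, at 76241580 to 76310963 (plus), 73639009 to 73703780 (minus) and 75367529 to 75395935 (plus). Smad3 (ENSMUSG00000032402) lies at chr9:63646767-63757994 on the minus, Ski (ENSMUSG00000029050) at chr4:155154075-155222592 on the minus and Skil (ENSMUSG00000027660) at chr3:31095058-31122577 on the plus strand.

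Per kilobase of exons, Skil had the highest mean of the 10 genes in each of the 4 groups and Itgb8 the lowest. Skil, which encodes the corepressor SNON, had a mean of 73.7 ± 4.78 CPM per kb in WT CD103+CD11b- DCs (SD, n = 3), where its 3 libraries lay above those of every other member. In WT CD103-CD11b+ DCs its mean was 63.2 ± 10.5 CPM per kb and its range overlapped that of Ski, next at 52.1 ± 13.9 CPM per kb. Tgfb1, the ligand, and Smad4, the SMAD shared by all branches of the pathway, had means in all groups between 41.5 and 60.8 CPM per kb. Smad2 was between 7.92 and 9.73 CPM per kb and Smad3 between 3.68 and 10.8 CPM per kb. These are the receptor SMADs, which carry the signal of TGF-beta, and Smad3 ranked below Smad2 in both CD103+CD11b- groups and above it in both CD103-CD11b+ groups. Their ranges overlapped in every group except WT CD103+CD11b-. Itgb8 was between 0.148 and 2.18 CPM per kb.

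**Figure D1:**
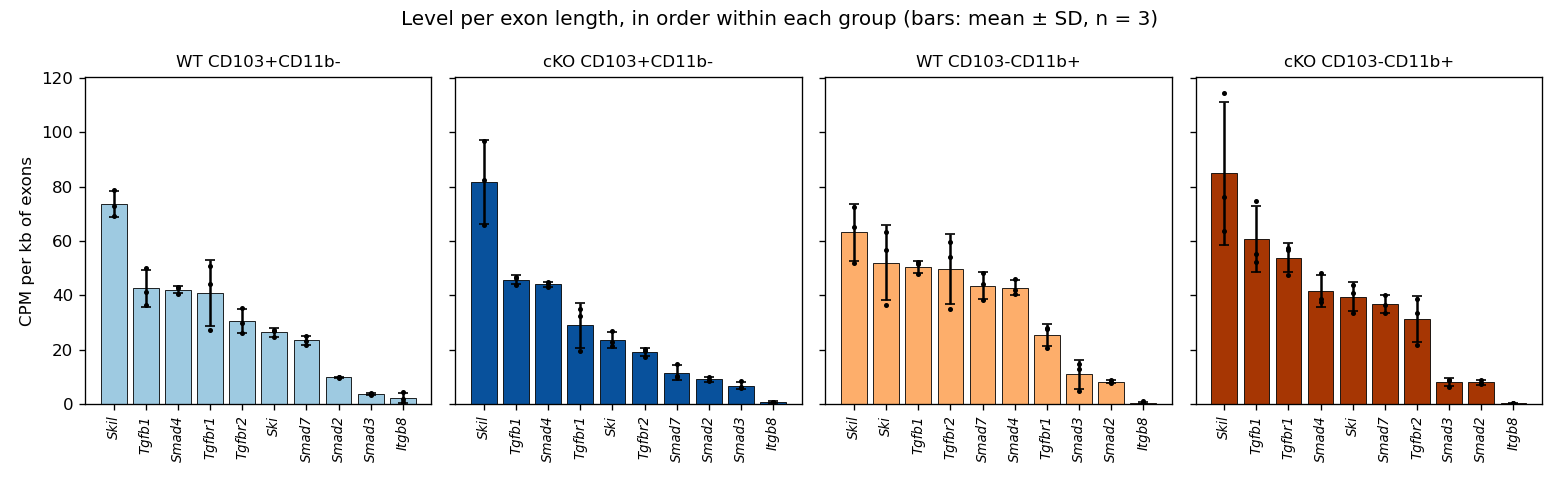
Mean CPM per kb of exons of the 10 genes in each group, in descending order (bars: mean, error bars: SD, n = 3; dots: libraries). Skil stands at the left in each panel and Itgb8 at the right, with means of 63.2 to 84.9 and 0.148 to 2.18 CPM per kb.

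Between the subsets in WT mice, 3 of the 10 genes passed the test, all higher in CD103-CD11b+ than in CD103+CD11b- DCs: Smad7, Ski and Smad3. A call required an FDR under 0.05 together with a fold over 1.3 in the quasi-likelihood F test of edgeR, adjusted after Benjamini and Hochberg over 20580 genes and given below as the edgeR adjusted p. Of all genes tested, 18.8% passed in either direction, 11.8% as higher and 7% as lower, and the share among the 10 was not tested against it. Their median log2 fold change was 0.14, beside 0.07 for all genes. In Cbfb-cKO mice the same comparison also gave 3 genes, Smad7, Ski and Tgfbr1, all higher in CD103-CD11b+ DCs, where 16.1% of all genes passed, 9.26% as higher and 6.81% as lower. The median there was 0.33 for the 10 and 0.11 for all genes. In bulk libraries, fewer cells that express a gene and less of its RNA per cell cannot be told apart.

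**Figure D2:**
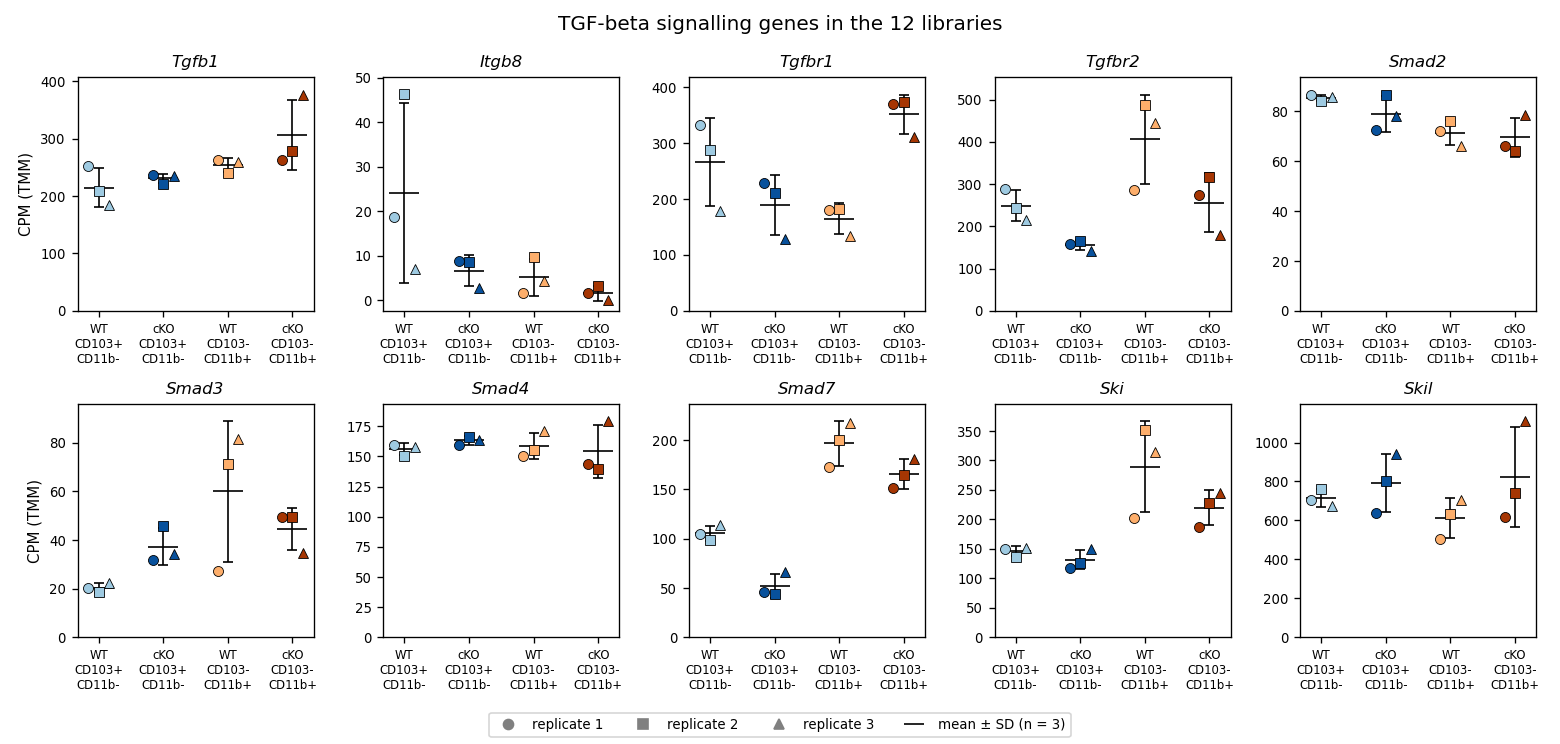
CPM (TMM) of each of the 10 genes in the 12 libraries by group (points: replicates 1 to 3 by shape, horizontal line and error bar: mean ± SD, n = 3). The Smad7 panel shows 43.9 to 66.1 CPM in Cbfb-cKO CD103+CD11b- libraries below 98.4 to 113 CPM in WT, and the Tgfbr1 panel 311 to 374 CPM in Cbfb-cKO CD103-CD11b+ libraries above 134 to 182 CPM in WT.

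Smad7 encodes the inhibitory SMAD that occupies the type I receptor and recruits ubiquitin ligases to it. Its level was 105, 98.4 and 113 CPM in WT CD103+CD11b- DCs and 173, 199.9 and 218 CPM in WT CD103-CD11b+ DCs, so that the groups did not overlap, as held between these subsets for 38.1% of all genes in WT and 34% in Cbfb-cKO mice. The log2 fold change was 0.90 (SE 0.16, edgeR adjusted p = 0.00435). In Cbfb-cKO mice Smad7 was 45.9, 43.9 and 66.1 CPM in CD103+CD11b- and 151, 165 and 181 CPM in CD103-CD11b+ DCs. Here the groups lay further apart, at a log2 fold change of 1.68 (SE 0.16, edgeR adjusted p = 6.49e-05), the smallest p among the 10 genes in any of the comparisons. Both calls held with each of the libraries left out in turn. Of the 6 markers of conventional type 2 DCs, 2 were called higher in CD103-CD11b+ DCs in WT and 5 in Cbfb-cKO mice. Their part in the Smad7 values was not tested.

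Ski encodes a corepressor that binds SMAD complexes and blocks their activity. Its level was 150.1, 137 and 152 CPM in WT CD103+CD11b- and 203, 351 and 315 CPM in WT CD103-CD11b+ DCs, a log2 difference of 0.98 (SE 0.19, edgeR adjusted p = 0.00685) with no overlap. In Cbfb-cKO mice it was 118, 126 and 149.8 CPM against 187, 228 and 244 CPM, a log2 fold change of 0.74 (SE 0.19, edgeR adjusted p = 0.0217). The groups were again apart, but this call was lost without Cbfb-cKO CD103+CD11b- replicate 1 or 2 or Cbfb-cKO CD103-CD11b+ replicate 2 or 3, with edgeR adjusted p values of 0.0895, 0.0712, 0.0778 and 0.0530. Skil, which encodes the related corepressor SNON, did not pass in either genotype: it was 705, 764 and 673 CPM against 503, 631 and 704 CPM in WT mice, a log2 fold change of -0.22 (SE 0.22, edgeR adjusted p = 0.517), and the log2 fold change in Cbfb-cKO mice was 0.05 (SE 0.22).

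Among the receptor SMADs, Smad3 was 20.2, 18.5 and 22.5 CPM in WT CD103+CD11b- and 27.2, 71.3 and 81.7 CPM in WT CD103-CD11b+ DCs. Replicate 1 of the latter stood close to the CD103+CD11b- libraries and the other two far above them. The log2 fold change was 1.55 (SE 0.34, edgeR adjusted p = 0.0127), and the edgeR adjusted p rose to 0.0590 without WT CD103+CD11b- replicate 2. Stroma markers summed to 530.5, 1429 and 1297 CPM in the same 3 CD103-CD11b+ libraries, replicate 1 again being the lowest, and to between 73.9 and 501 CPM in WT CD103+CD11b- DCs; their part in the result was not tested. In Cbfb-cKO mice Smad3 was 31.7, 45.9 and 34.4 CPM against 49.4, 49.5 and 34.7 CPM, ranges that overlapped, with a log2 fold change of 0.26 (SE 0.34, edgeR adjusted p = 0.639). Smad2 was between 84.0 and 86.5 CPM in WT CD103+CD11b- and between 66.0 and 76.0 CPM in WT CD103-CD11b+ DCs. These groups did not overlap, but the log2 fold change of -0.26 (SE 0.12) did not pass (edgeR adjusted p = 0.138), and in Cbfb-cKO mice it was -0.19 (SE 0.12, edgeR adjusted p = 0.3005) with overlap. Smad4, the common SMAD, lay between 139 and 179.5 CPM over all 12 libraries, with log2 fold changes between -0.11 and 0.07 over the 5 comparisons, the difference of differences included.

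Of the receptors, Tgfbr1 passed between the subsets in Cbfb-cKO mice, and Tgfbr2 lay just outside the limit in both genotypes. Tgfbr1, the type I receptor kinase, was 332, 288 and 178 CPM in WT CD103+CD11b- and 179.9, 182 and 134 CPM in WT CD103-CD11b+ DCs, a log2 difference of -0.69 (SE 0.25, edgeR adjusted p = 0.0798) that passed only without WT CD103+CD11b- replicate 3 (0.0158) or with either replicate block (0.00777 and 0.0119). In Cbfb-cKO mice it was 228, 211 and 128 CPM against 369.8, 374 and 311 CPM, and the CD103-CD11b+ libraries lay above all CD103+CD11b- libraries. The log2 fold change was 0.89 (SE 0.25, edgeR adjusted p = 0.0340), a call lost without Cbfb-cKO CD103+CD11b- replicate 2 or 3 or Cbfb-cKO CD103-CD11b+ replicate 1 or 2, with edgeR adjusted p values between 0.0634 and 0.107. Replicate 3 was the lowest library for Tgfbr1 in each of the 4 groups. Tgfbr2, the type II receptor that binds the ligand, was 288, 244 and 215 CPM against 287, 488 and 444 CPM in WT mice, with a log2 fold change of 0.71 (SE 0.23, edgeR adjusted p = 0.0526), and 159, 166 and 142 CPM against 274, 316 and 179 CPM in Cbfb-cKO mice, with a log2 fold change of 0.72 (SE 0.23, edgeR adjusted p = 0.0548). Both passed with DESeq2, at adjusted p values of 0.0148 and 0.0204, and with the replicate block, at edgeR adjusted p values of 0.0419 and 0.0462; the block within each genotype also put the WT value past the limit (0.0489), and not the Cbfb-cKO value. A stricter filter or none put both past the limit, at edgeR adjusted p values between 0.0392 and 0.0413, and RLE scaling the WT value (0.0441). They also passed in edgeR without WT CD103-CD11b+ replicate 1 (0.0212) and without Cbfb-cKO CD103-CD11b+ replicate 3 (0.0137).

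On the ligand side, Tgfb1 was 252, 208 and 184 CPM in WT CD103+CD11b- and 263, 241 and 259 CPM in WT CD103-CD11b+ DCs, with a log2 fold change of 0.24 (SE 0.15, edgeR adjusted p = 0.275). In Cbfb-cKO mice it was 236, 221 and 235 CPM against 263, 279 and 377 CPM, groups that did not overlap, with a log2 fold change of 0.41 (SE 0.15, edgeR adjusted p = 0.0869) that passed with the stricter filter of 5 or more counts in every library (0.0399). Itgb8, the beta chain of the integrin that releases active TGF-beta, was the least counted member, with 0 to 203 counts in a library. It was 18.8, 46.4 and 7.11 CPM in WT CD103+CD11b- and 1.57, 9.66 and 4.36 CPM in WT CD103-CD11b+ DCs. The ranges overlapped, and the log2 fold change of -2.24 (SE 0.87, edgeR adjusted p = 0.0955) did not pass, but did so without WT CD103+CD11b- replicate 3 (0.0432) or with either replicate block (0.0383 and 0.0252). In Cbfb-cKO mice Itgb8 was 8.88, 8.54 and 2.74 CPM against 1.57, 3.33 and 0 CPM, where a count of 0 allows up to 1.53 CPM, counting error only, with a log2 fold change of -1.89 (SE 0.95, edgeR adjusted p = 0.195).

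**Figure D3:**
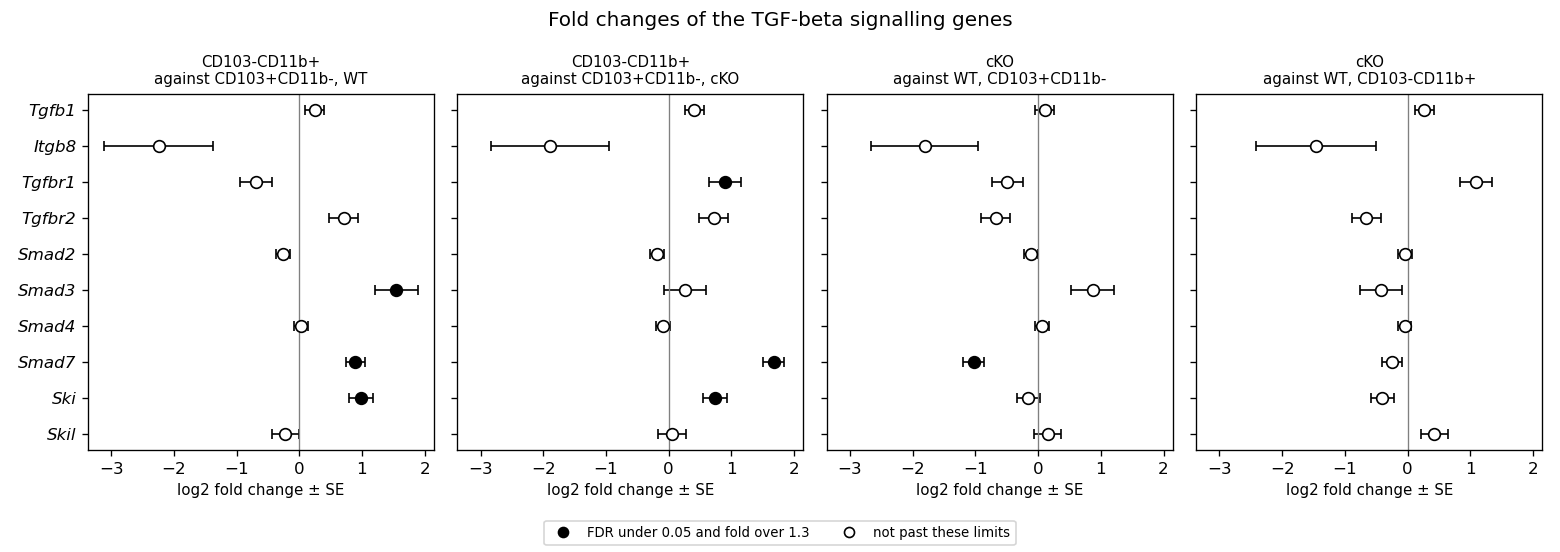
Log2 fold changes of the 10 genes with their SE from the edgeR fit in 4 comparisons (filled: FDR under 0.05 and fold over 1.3; open: not past these limits). The filled points are Smad3, Smad7 and Ski between subsets in WT, Tgfbr1, Smad7 and Ski between subsets in cKO, and Smad7 at -1.03 for cKO against WT in CD103+CD11b- DCs.

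Loss of Cbfb in CD103+CD11b- DCs went with a lower level of Smad7 and with no other call among the 10 genes. This is 1 of 10 genes, where 1.02% of all genes passed, 0.224% as higher and 0.797% as lower. The levels of Smad7 given above, 98.4 to 113 CPM in WT and 43.9 to 66.1 CPM in Cbfb-cKO libraries, did not overlap, and the log2 fold change was -1.03 (SE 0.16, edgeR adjusted p = 0.0153), a fold of 0.490. The log2 fold change lay between -1.23 and -0.92 with each library left out, but the call was lost without WT replicate 1 or 2 or Cbfb-cKO replicate 1 or 2, with edgeR adjusted p values of 0.0697, 0.0665, 0.0903 and 0.0748. Markers of conventional type 2 DCs (cDC2s: Sirpa, Irf4, Clec10a, Mgl2, Clec4a4, Cd209a) moved with it. Their summed level was 628, 461 and 368 CPM in the WT and 121, 126 and 77.0 CPM in the Cbfb-cKO CD103+CD11b- libraries, 4 of the 6 passed as lower, and at least 5 of the 6 had a count in each library; their part in the Smad7 result was not tested. The summed cDC1 markers were 3051, 2812 and 2245 CPM in WT and 3327, 3553 and 3961 CPM in Cbfb-cKO libraries.

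**Figure D4:**
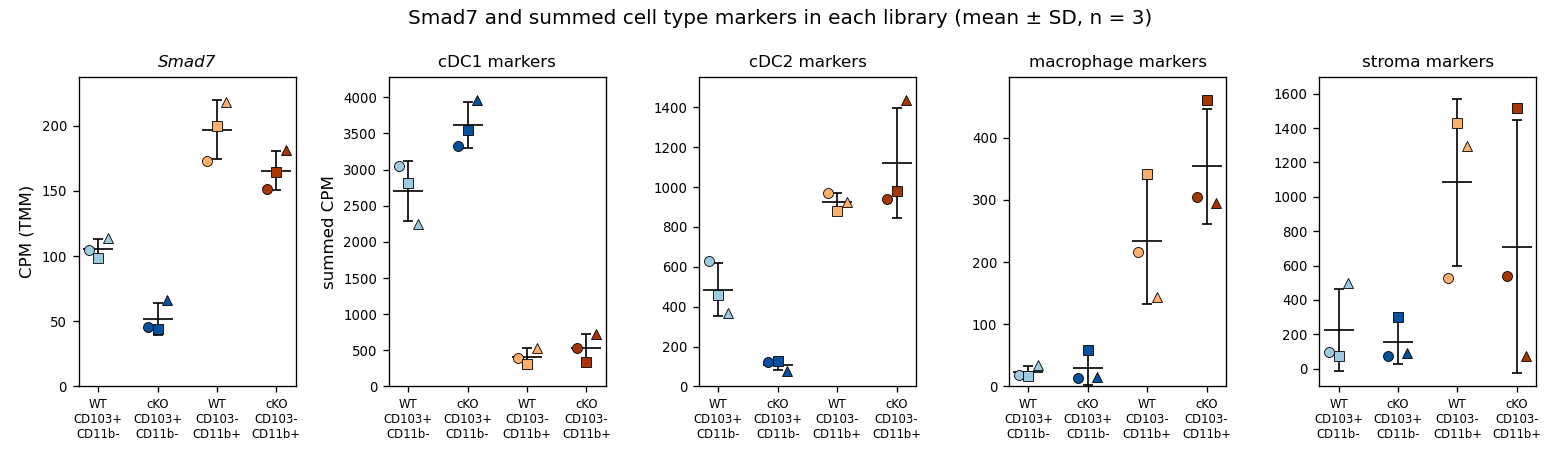
Smad7 (CPM) and the summed CPM of cDC1, cDC2, macrophage and stroma markers in the 12 libraries by group (points: replicates by shape; line and bar: mean ± SD, n = 3). In CD103+CD11b- DCs both Smad7 and the cDC2 markers were lower in Cbfb-cKO libraries, the markers at 77.0 to 126 CPM against 368 to 628 CPM.

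The other members in this subset gave values short of the limit. Tgfbr2 was 288, 244 and 215 CPM in WT and 159, 166 and 142 CPM in Cbfb-cKO CD103+CD11b- DCs, without overlap, at a log2 fold change of -0.68 (SE 0.23, unadjusted p = 0.0136 and edgeR adjusted p = 0.265 in a fit over all genes). Smad3 was 18.5 to 22.5 CPM in WT and 31.7 to 45.9 CPM in Cbfb-cKO libraries, also apart, at a log2 fold change of 0.87 (SE 0.34, edgeR adjusted p = 0.363). The groups were apart as well for Smad4, at a log2 fold change of only 0.07 (SE 0.11). Such separation is common here, since 18.1% of all genes had groups that did not overlap in this comparison. Itgb8 had a log2 fold change of -1.81 (SE 0.85, edgeR adjusted p = 0.499) and Tgfbr1 of -0.49 (SE 0.25, edgeR adjusted p = 0.570), both with overlapping libraries. Tgfb1, Smad2, Ski and Skil lay between -0.16 and 0.15 on the same scale.

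In CD103-CD11b+ DCs, 0 of the 10 genes passed between Cbfb-cKO and WT, where 1.61% of all genes did by edgeR's quasi-likelihood test, 1.11% as higher and 0.5% as lower. At an unadjusted p under 0.05 there were 2, Tgfbr1 and Tgfbr2, beside 3590 of all 20580 genes, and with DESeq2 there was 1, Tgfbr1. Tgfbr1 was 179.9, 182 and 134 CPM in WT and 369.8, 374 and 311 CPM in Cbfb-cKO libraries, and every Cbfb-cKO library was above every WT library. The log2 fold change was 1.09 (SE 0.25), a fold of 2.13, at an edgeR adjusted p of 0.0577. Over the alternatives that kept all 6 libraries of the comparison this value crossed the limit in 4: a stricter filter (0.0394), no filter (0.0308), DESeq2 (0.00209) and the replicate number as a block (0.00404). It stayed outside the limit with each library left out, at edgeR adjusted p values between 0.0754 and 0.159. Macrophage markers summed to between 143 and 341 CPM in WT and between 295 and 460.2 CPM in Cbfb-cKO CD103-CD11b+ libraries, ranges that overlapped. Of these 8 markers 4 had a positive and 4 a negative log2 fold change, with a median of -0.05. The 1 called was Adgre1, higher at 139.9 to 237 CPM in Cbfb-cKO against 29.7 to 75.96 CPM in WT libraries. The part of these markers in the Tgfbr1 value was not tested.

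Tgfbr2 was 287, 488 and 444 CPM in WT and 274, 316 and 179 CPM in Cbfb-cKO CD103-CD11b+ DCs, at -0.66 on the log2 scale (SE 0.23, edgeR adjusted p = 0.173), beside -0.68 in CD103+CD11b- DCs. Smad7 was 173, 199.9 and 218 CPM against 151, 165 and 181 CPM, overlapping, with a log2 fold change of -0.25 (SE 0.16, edgeR adjusted p = 0.433). Tgfb1 was higher in every Cbfb-cKO library, 263 to 377 CPM against 241 to 263 CPM, but by a log2 fold change of 0.27 (SE 0.15, edgeR adjusted p = 0.378). Groups were apart for 20.1% of all genes in this comparison. Ski, at -0.40 (SE 0.19), Smad3, at -0.42 (SE 0.33), Skil, at 0.42 (SE 0.22), and Itgb8, at -1.46 (SE 0.96), did not pass and overlapped. Smad2 and Smad4 were at -0.04 and -0.05 on the log2 scale.

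Whether the effect of Cbfb loss differed between the subsets was tested as an interaction, the log2 fold change in CD103-CD11b+ DCs minus that in CD103+CD11b- DCs. None of the 10 genes passed by edgeR's quasi-likelihood test, where 0.651% of all genes did, 0.554% with a positive and 0.0972% with a negative difference. At an unadjusted p under 0.05 there were 3, beside 2284 of all 20580 genes, and 1 passed with DESeq2. The widest difference was that of Tgfbr1, 1.58 (SE 0.36, edgeR adjusted p = 0.0919), from log2 values of 1.09 in CD103-CD11b+ and -0.49 in CD103+CD11b- DCs. It passed with DESeq2 (adjusted p = 0.00354), with no filter (0.0369), with the replicate number as a block (0.00691) or with that block within each genotype (0.0132), and without WT CD103+CD11b- replicate 3 (0.0245). Smad7 differed by 0.78 (SE 0.22, edgeR adjusted p = 0.195) and passed only with the replicate block (0.0441), so the lower Smad7 in CD103+CD11b- DCs was not shown to be particular to that subset. Smad3 had a difference of -1.29 (SE 0.48, edgeR adjusted p = 0.324), which passed without WT CD103-CD11b+ replicate 1 (0.0280). That of Tgfbr2 was 0.02 (SE 0.32), with a sign that turned under other scalings. Ski was at -0.24 (SE 0.27), Skil at 0.27 (SE 0.31), Itgb8 at 0.35 (SE 1.32), Tgfb1 at 0.16 (SE 0.21), Smad2 at 0.07 (SE 0.16) and Smad4 at -0.11 (SE 0.15), none past the limit.

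Around these 10 genes, 69 further genes of or around the TGF-beta pathway were listed by role, and 67 were tested. Between the subsets in WT mice, 24 of the 67 were higher and 4 lower in CD103-CD11b+ DCs, 41.8% in all against 18.8% of all genes, with a median log2 fold change of 0.61. In Cbfb-cKO mice 8 were higher and 4 lower, 17.9% against 16.1% of all genes, with a median of 0.50. The counts rested on few libraries. In WT mice the 4 lower were 2 without WT CD103+CD11b- replicate 1 or 2, and in Cbfb-cKO mice they were 2 without Cbfb-cKO CD103+CD11b- replicate 1, 2 or 3 or Cbfb-cKO CD103-CD11b+ replicate 1. For the higher genes, without WT CD103+CD11b- replicate 1 or 2 the WT count fell to 8 and 6, and without WT CD103-CD11b+ replicate 2 to 10, while without the other libraries it was between 17 and 28. In the fit to 6 libraries it was 16, with the replicate block 27, with DESeq2 33 and with the block within each genotype 34. The Cbfb-cKO count of 8 was 13 without Cbfb-cKO CD103-CD11b+ replicate 3 or with no filter, 14 with the replicate block, 17 with DESeq2 and 20 with the block within each genotype. It was 6 without Cbfb-cKO CD103+CD11b- replicate 1 or 3 or Cbfb-cKO CD103-CD11b+ replicate 2. Among WT libraries, stroma markers were highest in CD103-CD11b+ replicate 2, at 1429 CPM, and epithelial markers summed to between 174 and 314 CPM in the WT CD103-CD11b+ and between 83.4 and 234 CPM in the WT CD103+CD11b- libraries; 3 of 7 epithelial markers, Krt8, Krt18 and Vil1, were called higher in the former, while Cdh1, which gave most of the sum, was at a log2 fold change of 0.05. In both genotypes 6 of 8 macrophage markers were also higher in CD103-CD11b+ DCs, and the part of these markers in the counts was not tested.

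Ligands and the proteins that store or release them held 8 of 17 genes that were higher in WT CD103-CD11b+ DCs and 0 lower. Mmp14, a membrane protease able to activate latent TGF-beta, was 4.45 to 6.31 CPM in WT CD103+CD11b- and 23.9 to 49.3 CPM in WT CD103-CD11b+ DCs, a log2 difference of 2.59 (SE 0.40, edgeR adjusted p = 0.00231). Itgb5, the beta chain of another integrin that binds the latent complex, rose by 3.45 (SE 0.69), Mmp9, a secreted protease, by 5.77 (SE 1.33), from between 0.342 and 1.13 CPM to between 5.24 and 113 CPM, and Thbs1, which encodes the activator thrombospondin 1, by 4.37 (SE 1.07) to as much as 1296 CPM in WT CD103-CD11b+ replicate 2. In Cbfb-cKO mice 5 of the 17 were higher, led by Mmp14 at 4.21 (SE 0.43), Nrros, which anchors latent TGF-beta on myeloid cells, at 0.98 (SE 0.16), Itgb3 at 2.02 (SE 0.38) and Mmp9 at 4.35 (SE 1.09), all with edgeR adjusted p values between 9.08e-05 and 0.0199. Without WT CD103+CD11b- replicate 1 or 2 or WT CD103-CD11b+ replicate 2 the WT count of 8 fell to 3, 2 and 3, and without WT CD103-CD11b+ replicate 3 to 5. The Cbfb-cKO count of 5 was 3 without Cbfb-cKO CD103+CD11b- replicate 1 or 3 or Cbfb-cKO CD103-CD11b+ replicate 2, and in each case the call of Mmp9 was lost.

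Of 10 other receptors tested, 4 were higher in WT CD103-CD11b+ DCs, and 1 was higher and 2 lower in Cbfb-cKO mice. Acvr2a, an activin receptor, was higher in both, by 1.16 (SE 0.26) in WT and 1.65 (SE 0.27) in Cbfb-cKO mice on the log2 scale (edgeR adjusted p = 0.0142 and 0.00174). The type II BMP receptor Bmpr2 rose by 1.40 (SE 0.33), the coreceptor endoglin, Eng, by 3.48 (SE 0.82) and Acvr2b by 1.33 (SE 0.41) in WT CD103-CD11b+ DCs. Eng is known from endothelium, and its level of 587 CPM was highest in WT CD103-CD11b+ replicate 2. The BMP type I receptor Acvr1 and its relative Acvrl1 were lower in Cbfb-cKO CD103-CD11b+ than CD103+CD11b- DCs, by -1.06 (SE 0.27) and -1.11 (SE 0.30), and both calls were lost without Cbfb-cKO CD103+CD11b- replicate 1, 2 or 3 or Cbfb-cKO CD103-CD11b+ replicate 1, and that of Acvrl1 also without Cbfb-cKO CD103-CD11b+ replicate 3. Without the 3 WT libraries named above, taken in the same order, the WT count of 4 was 1, 1 and 2; it was 7 with DESeq2. The Cbfb-cKO count of 1 higher was 3 without Cbfb-cKO CD103-CD11b+ replicate 3, with DESeq2, with no filter or with the block within each genotype, and 2 with the stricter filter, the replicate block or without Cbfb-cKO CD103+CD11b- replicate 2.

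Among 13 other SMADs and SMAD partners, 5 were higher and 2 lower in WT CD103-CD11b+ DCs and 0 passed in Cbfb-cKO mice with edgeR. In the latter 4 had an unadjusted p under 0.05, beside 6555 of all 20580 genes. In Cbfb-cKO mice 2 were higher with DESeq2 or the block within each genotype, 1 with the replicate block, with no filter or without Cbfb-cKO CD103+CD11b- replicate 2, and 1 was higher and 1 lower without Cbfb-cKO CD103-CD11b+ replicate 3. Smad6, the inhibitory SMAD of the BMP branch, was 0.684, 0.458 and 3.72 CPM in WT CD103+CD11b- and 14.7, 62.6 and 52.9 CPM in WT CD103-CD11b+ DCs, a log2 difference of 4.58 (SE 0.97, edgeR adjusted p = 0.0110). Zfyve9, which encodes the adaptor SARA that presents receptor SMADs to the receptor, rose by 2.72 (SE 0.62). The related endosomal protein gene Zfyve16 fell by 0.49 on the log2 scale (SE 0.10), with libraries between 60.9 and 61.4 CPM below 84.5 to 87.3 CPM, and Tab2, an adaptor of the kinase TAK1, fell by 0.50 (SE 0.12). Of 16 modifiers and brakes, 1 was higher and 1 lower in each genotype. In WT mice Smurf2, a ubiquitin ligase, rose by 0.42 (SE 0.11) and Usp15, a deubiquitinase, fell by 0.45 (SE 0.10), and in Cbfb-cKO mice the corepressor Tgif2 rose by 1.55 (SE 0.33) and Fkbp1a, whose protein FKBP12 holds the type I receptor inactive, fell by 0.85 (SE 0.18). In WT mice, higher SMADs and partners numbered 2, 1 and 2 without the same 3 libraries and lower ones 1 each time, Tab2 being lost. Smurf2 lost its call in all 3 of these fits and Usp15 without either of the CD103+CD11b- libraries. The WT count of 1 higher modifier was 0 with no filter or in the fit to 6 libraries. It was 2 with RLE scaling, the stricter filter, DESeq2 or either replicate block. In Cbfb-cKO mice the count of 1 higher was 2 with either replicate block.

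Of 11 genes known as targets of the pathway, 6 were higher and 1 lower in WT CD103-CD11b+ DCs, and 1 was higher and 1 lower in Cbfb-cKO mice. In the latter 6 had an unadjusted p under 0.05, beside 6555 of all 20580 genes. The count of higher targets in Cbfb-cKO mice was 5 with DESeq2, 6 with the block within each genotype, 3 with the stricter filter, the replicate block or without Cbfb-cKO CD103-CD11b+ replicate 3, and 2 without its replicate 1 or with no filter. Cdkn1a, the cell cycle inhibitor p21, was 20.9, 20.4 and 21.02 CPM in WT CD103+CD11b- and 69.1 to 125 CPM in WT CD103-CD11b+ DCs, a log2 difference of 2.33 (SE 0.33, edgeR adjusted p = 0.00134), and in Cbfb-cKO mice it rose by 1.73 (SE 0.32). Tgfbi, which encodes a matrix protein, rose by 1.42 (SE 0.24), and Klf10, an early response factor of the pathway, by 1.48 (SE 0.33) in WT mice. Itgae, which encodes CD103 itself and was used for the sort, was lower in CD103-CD11b+ DCs by -2.01 (SE 0.35) in WT and -3.77 (SE 0.39) in Cbfb-cKO mice, which the sort fixes. Without the 3 WT libraries named above, 2, 2 and 3 targets were higher in place of 6, and 3 without WT CD103-CD11b+ replicate 3.

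**Figure D5:**
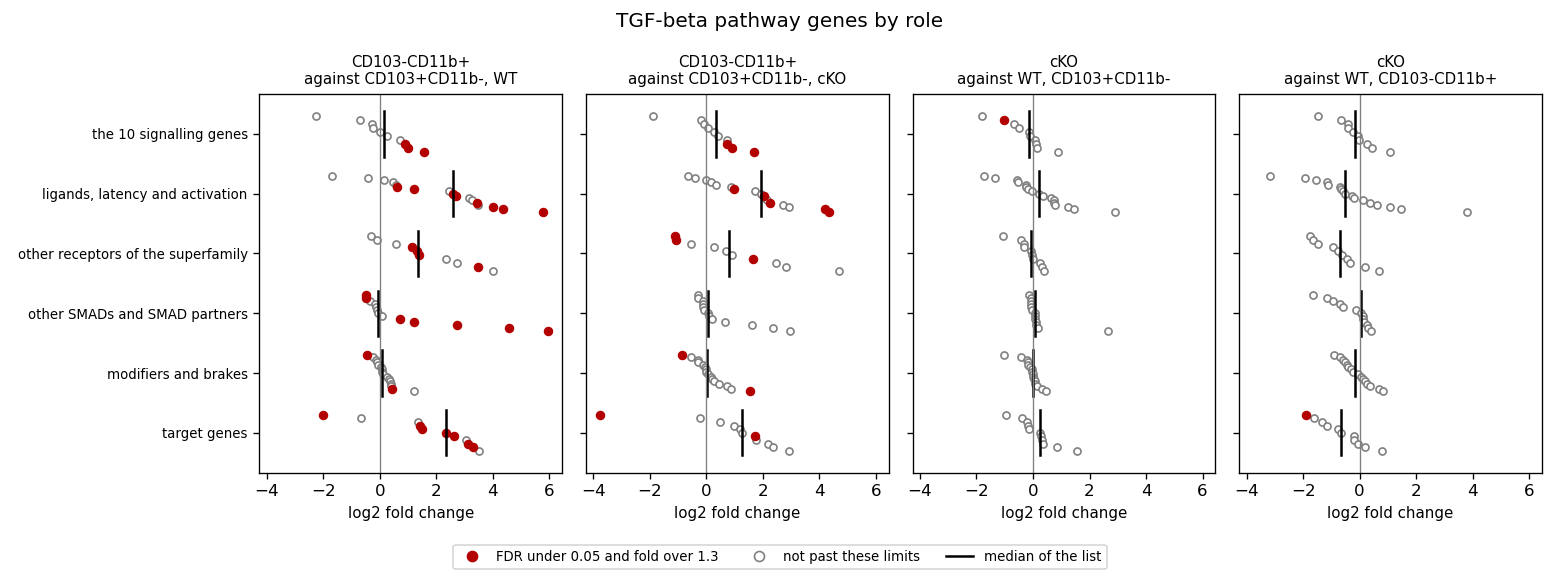
Log2 fold changes of the 10 genes and of 67 further pathway genes by role in 4 comparisons (red: FDR under 0.05 and fold over 1.3; open: not past these limits; black line: median of the list). Red points are many in WT between subsets, 24 to the right and 4 to the left beside the 10 genes, and few in both comparisons of cKO with WT.

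Between genotypes the wider pathway gave few calls. In CD103-CD11b+ DCs 1 of the 67 genes passed with edgeR, against 3 higher and 4 lower with DESeq2 and 3 higher and 1 lower with the replicate block. The edgeR share was 1.49% against 1.61% of all genes. An unadjusted p under 0.05 was found for 4 of 17 ligand and activation genes, 2 of 10 receptors and 4 of 13 SMADs and partners. It was also found for 7 of 16 modifiers and brakes and 3 of 11 targets, beside 3590 of all 20580 genes. The gene called was Itgae, at 281, 138 and 150 CPM in WT and 81.5, 39.3 and 30.6 CPM in Cbfb-cKO libraries, a log2 fold change of -1.89 (SE 0.36, edgeR adjusted p = 0.0301). These cells were gated as lacking CD103 protein. No target gene was called lower, Itgae included, without WT CD103-CD11b+ replicate 1 or 3, without Cbfb-cKO CD103-CD11b+ replicate 2 or 3, or in the fit to 6 libraries. In CD103+CD11b- DCs 0 of 67 passed by edgeR's quasi-likelihood test, while DESeq2 gave 2 higher and 1 lower. Of the 67, 4 had an unadjusted p under 0.05 there, beside 2166 of all 20580 genes. Itgae there was 899, 785 and 616 CPM in WT and 657, 664 and 776 CPM in Cbfb-cKO libraries. The interaction gave 0 of 67 with edgeR, 7 at an unadjusted p under 0.05, beside 2284 of all 20580 genes, and 2 with DESeq2. Of 11 target genes, 9 had a negative log2 fold change in CD103-CD11b+ DCs, with a median of -0.66 beside -0.06 for all genes, and 5 in CD103+CD11b- DCs, with a median of 0.25 beside -0.02. Of 7 epithelial markers in CD103-CD11b+ DCs, 6 also had a negative log2 fold change and 0 were called (4 at an unadjusted p under 0.05), with sums between 174 and 314 CPM in WT and between 38.8 and 70.4 CPM in Cbfb-cKO libraries. Cdh1 had the highest level of the 7, at 116 to 224 CPM in WT and 22.6 to 46.9 CPM in Cbfb-cKO libraries. The part of these markers in the medians was not tested.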

How the data were processed

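The authors deposited raw read counts per gene for each library (unit: counts). Per their methods, libraries were made by RamDA-seq modified for small sorted pools (Tn5 tagmentation, PCR), trimmed with Trim Galore, aligned to mm10 with STAR 2.7, cleared of poor alignments and duplicates, and counted with HTSeq without strand, so reads of antisense genes are not separated. Its 5 summary lines entered no test. Of the identifiers, 53706 (99.82%) matched GENCODE M21.

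Computed here with R 4.3.3: a minimum of 5 counts in any 1 library (leaving 20580 genes), TMM scaling, and edgeR 4.0.16 (limma 3.58.1) quasi-likelihood tests in 1 model of the 4 groups, with Benjamini-Hochberg adjustment over all genes tested; a call needed FDR under 0.05 and a fold over 1.3. DESeq2 1.42.0, RLE scaling, other filters, replicate blocks, fits to 6 libraries and leaving out each library were alternatives. CPM and CPM per kb of exons are descriptive. Figures used Python 3.11.15. The fit was tested on simulated data. Promoter windows are from RefSeq.

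The 10 genes and all lists (pathway roles, and markers of cDC1, cDC2, all DCs, macrophages, T cells, epithelium and stroma; 1 further marker list is not reported here) were chosen with earlier results of these data known. All 10 genes are named in every comparison, and of other pathway lists up to 4 called genes with the smallest p. Same-numbered libraries of the Cbfb-cKO subsets deviated together (r = 0.112 to 0.354 over 3 pairs); those of the WT subsets (-0.0846 to 0.357), of the CD103-CD11b+ genotypes (0.0200 to 0.422) and of the CD103+CD11b- genotypes (-0.0911 to 0.132) did not all exceed 0.1. Replicate pairs differed beyond sampling noise (chi-square per degree of freedom 2.46 to 23.2). Counting error is smallest in the deepest libraries.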

Additional observations from a re-analysis of the deposited data

Results flagged for a closer look

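Fkbp1a, which encodes the receptor-binding protein FKBP12, had fold changes of opposite sign upon Cbfb loss in the 2 subsets, with no overlap in either, but passed the test in neither. It was 143, 134 and 151 CPM in WT and 169, 152 and 219.8 CPM in Cbfb-cKO CD103+CD11b- DCs, so every Cbfb-cKO library was above every WT library. In CD103-CD11b+ DCs it was 110.2, 175 and 166 CPM in WT and 101, 100.4 and 97.4 CPM in Cbfb-cKO libraries, all below WT. Groups were likewise apart for 18.1% and 20.1% of all genes. The log2 fold changes were 0.33 (SE 0.18, edgeR adjusted p = 0.594) and -0.59 (SE 0.18, edgeR adjusted p = 0.123), and their difference was -0.92 (SE 0.25). The test of this difference did not pass (quasi-likelihood F test of edgeR, Benjamini-Hochberg adjusted p = 0.172). It did with DESeq2 (adjusted p = 0.0366) and without WT CD103-CD11b+ replicate 1 (edgeR adjusted p = 0.0391), the lowest WT library there, and without that library the fold change in CD103-CD11b+ DCs passed as well (edgeR adjusted p = 0.0363).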

How the results depend on the processing

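Of the members' log2 fold changes, 319 kept their direction and side of the limit with a library left out and 284 under other settings; 22 and 7 reversed, 13 and 0 lost a call, and 6 and 24 gained one, and the cause was not tested beyond the smaller number of libraries in the former. Members called rose from 0 to 1 for Cbfb-cKO against WT in CD103-CD11b+ DCs with 5 or more counts in every library, no filter, DESeq2 or the replicate block; from 0 to 1 for the difference between subsets with no filter, DESeq2 or the replicate block within each genotype (chosen after seeing the data), and to 2 with the replicate block; from 3 to 6 between WT subsets with either replicate block, which added Itgb8, Tgfbr1 and Tgfbr2; and from 3 to 5 between Cbfb-cKO subsets with the stricter filter, which added Tgfb1 and Tgfbr2. The replicate block also put Tgfbr2 past the limit between Cbfb-cKO subsets, and the block within each genotype changed no member there. With libraries left out, members called were 0 to 0, 0 to 1, 0 to 1, 2 to 5 and 1 to 3 for Cbfb-cKO against WT in CD103-CD11b+ and in CD103+CD11b- DCs, the difference, and the subsets in WT and in Cbfb-cKO mice, and genes called were 109 to 517, 46 to 241, 29 to 208, 1408 to 4122 and 2118 to 3637, beside 331, 210, 134, 3860 and 3307. Genes called for Cbfb-cKO against WT in CD103-CD11b+ DCs were 573 with the stricter filter, 1136 with DESeq2, 849 with the replicate block and 29 in the fit to 6 libraries; in CD103+CD11b- DCs they were 320 with no filter, 655 with DESeq2 and 522 with the block; for the difference they were 205, 502 and 330 in that order and 328 with the block within each genotype; and between WT subsets they were 2510 in the fit to 6 libraries. Reversed values were all small and not called: Smad2 at 0.0082 and Smad4 at 0.00070 for Cbfb-cKO against WT in CD103-CD11b+ DCs in the fit to 6 libraries; the difference of Tgfbr2 at -0.025 with RLE, -0.0026 with the stricter filter, -0.025 with DESeq2 and -0.0017 with the replicate block; and that of Itgb8 at -0.093 with the block. With a library left out, values crossing 0 were the differences of Itgb8 (-0.56 to 1.17), Skil (-0.0025 to 0.45), Smad2 (-0.018 to 0.14), Tgfb1 (-0.013 to 0.28) and Tgfbr2 (-0.17 to 0.22), Skil between Cbfb-cKO subsets (-0.22 to 0.19), Smad4 between WT subsets (-0.074 to 0.042), and Smad2 (-0.13 to 0.042) and Smad4 (-0.17 to 0.046) for Cbfb-cKO against WT in CD103-CD11b+ DCs. Itgb8, at 0 counts in a library, is not tested under the stricter filter. Depth limits Itgb8 most, since 3 counts are up to 1.53 CPM.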

Other observations

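Markers of T cells and epithelium were counted in all groups of sorted DCs. T cell markers (Cd3d, Cd3e, Cd3g, Cd4, Trac, Lck, Cd2) lay between 16.8 and 160.3 CPM over all libraries. In CD103+CD11b- DCs they summed to 94.7, 92.7 and 70.3 CPM in WT and 32.6, 45.6 and 40.7 CPM in Cbfb-cKO libraries. Cd4 alone had means of 62.6 ± 32.5 and 18.6 ± 13.2 CPM there (SD, n = 3). Of the 7, 5 had a negative log2 fold change and 0 were called by edgeR's quasi-likelihood test. Epithelial markers (Krt8, Krt18, Krt20, Vil1, Lgals4, Fabp2, Cdh1) lay between 18.4 and 103 CPM in Cbfb-cKO CD103+CD11b- DCs, beside 83.4 to 234 CPM in WT. Cdh1, most of the sum in WT libraries, was at 4.69 to 43.9 CPM beside 67.7 to 217 CPM, while 5 of the 7 markers had a positive log2 fold change (median 1.31) and 0 were called by edgeR's quasi-likelihood test. Of these 7, 3 had an unadjusted p under 0.05, beside 2166 of all 20580 genes.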
